A study of Homo sapiens with 12 samples.

Results

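The mRNAs of 10 cell surface proteins, here called antigens, were compared between 2 myeloma cell lines and before and after exposure to withaferin A (WA). The proteins are used as therapy targets in multiple myeloma and lymphoma or as plasma cell markers. Such therapies are antibodies, antibody conjugates, bispecific antibodies or CAR T cells. The genes are TNFRSF17 (BCMA), GPRC5D, SLAMF7 (CS1), FCRL5, SDC1 (syndecan-1, CD138), CD38, CD28, CD27, TNFRSF8 (CD30) and CD52. They were chosen by symbol, with earlier results of these data known, from the 43735 genes of the count table, and all 10 were found there. CD52 and CD30 mRNA were the antigens called different between the lines, with levels more than 10-fold higher in MM1R than in MM1S. SLAMF7 mRNA rose with WA in both lines, a call lost in MM1R in 4 of 12 fits with 1 library left out. BCMA and GPRC5D mRNA were lower with WA in each of the 6 pairs of cultures, and CD38 mRNA was higher in each.

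Plasma cells lose many B cell surface proteins as they mature and gain others. BCMA is a TNF receptor family member that binds APRIL and BAFF and supports the survival of plasma cells, and its extracellular part can be cut off by gamma-secretase. SDC1 is a heparan sulfate proteoglycan used to recognize plasma cells, CD38 is an ectoenzyme that consumes NAD, SLAMF7 is a self-binding receptor of the SLAM family, GPRC5D is an orphan seven-pass receptor, and FCRL5 is an Fc receptor-like protein of the B lineage. CD27 and CD28 are costimulatory receptors, for CD70 and for CD80 and CD86, and both are also found on T cells. CD30 is a TNF receptor family member known from Hodgkin and anaplastic large cell lymphoma, with CD30 ligand (TNFSF8) as its partner, and CD52 is a small glycosylphosphatidylinositol-anchored glycoprotein of lymphocytes and the antigen of alemtuzumab.

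MM1S and MM1R are established myeloma lines derived from 1 patient, MM1S being glucocorticoid-sensitive and MM1R glucocorticoid-resistant. Cells of each line were left untreated (UT) or received 1 µM WA, a plant steroidal lactone, for 3 h. Each of the 4 groups had 3 cultures, taken at passages 16, 22 and 23 of MM1S and passages 4, 6 and 7 of MM1R, and the sources name no vehicle in the untreated cultures. All 12 cultures grew in RPMI-1640 with fetal bovine serum. Each line stands for 1 patient, so that a difference between the lines is one between these 2 lines only. Passage range and line coincide and cannot be told apart. RNA was sequenced from whole cultures, where fewer cells that carry an mRNA and less mRNA per cell cannot be told apart, and mRNA is not a measure of protein on the surface.

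The 12 libraries held 17625110 to 19368343 reads assigned to genes, and 14085 genes passed the filter on low counts. The 10 plasma cell markers examined were detected in every group, with summed levels of 9049 to 12311 CPM (counts scaled by library size with TMM factors) in the 6 MM1S cultures and 12555 to 18497 CPM in the 6 MM1R cultures. Most of the gap was in JCHAIN, the joining chain of secreted immunoglobulin, at 5168 to 7379 CPM in MM1S and 8368 to 12669 CPM in MM1R, while the other 9 summed to 3881 to 5296 and 4188 to 6114 CPM. Of these 10 markers 1 was called higher in untreated MM1R and 0 lower, where 1.48% and 1.49% of all genes were. It was DERL3, a protein of the endoplasmic reticulum (log2 fold change 1.11, edgeR adjusted p = 0.00503, called in 8 of 12 fits with a library left out). The part of these markers in the differences between the lines was not tested. The T cell genes CD3D and CD3G had at most 1 read, while CD3E lay at 3.26 to 11.6 CPM. The MM1S cultures of passage 16 stood apart from the other MM1S cultures, with correlations of log2 CPM across genes of 0.976 to 0.980 against 0.988 to 0.990 between passages 22 and 23. Calls of named genes that were lost without both of them are noted with the result.

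The sequences that end at the start of 3 of the genes are shown because CD52 and CD30 were higher in MM1R and CD38 had the lowest log2 fold change of the antigens. They are the 200 bases before the RefSeq start (table build GRCh38.p14), read 5′ to 3′ on the strand of the gene and placed in GRCh37 by an exact match. For CD38 the GENCODE gene begins upstream of the RefSeq start, so the end of its window, with the ETS-IRF match, lies inside the gene as annotated there. Capitals mark matches, on either strand, to the motifs searched.
CD52, chr1:26644249-26644448, plus strand: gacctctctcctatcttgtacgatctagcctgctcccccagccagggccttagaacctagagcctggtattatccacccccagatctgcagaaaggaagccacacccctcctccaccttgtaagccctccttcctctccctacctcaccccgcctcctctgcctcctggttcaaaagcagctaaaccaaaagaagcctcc
TNFRSF8, chr1:12123160-12123359, plus strand: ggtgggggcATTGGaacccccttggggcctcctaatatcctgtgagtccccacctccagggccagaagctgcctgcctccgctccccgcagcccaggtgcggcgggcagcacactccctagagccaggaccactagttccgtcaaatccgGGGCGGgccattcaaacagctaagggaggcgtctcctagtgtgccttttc
CD38, chr4:15779751-15779950, plus strand: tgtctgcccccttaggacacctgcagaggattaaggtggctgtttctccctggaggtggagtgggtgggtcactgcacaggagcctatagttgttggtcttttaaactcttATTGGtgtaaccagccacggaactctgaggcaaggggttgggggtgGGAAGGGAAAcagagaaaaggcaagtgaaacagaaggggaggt

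The CD52 sequence held 2 CpG dinucleotides and a G and C content of 56.5%, against 8 CpG and 64.0% for TNFRSF8 and 1 CpG and 53.0% for CD38. Across 35116 RefSeq promoters the median G and C content of the same window was 59.0%. The TNFRSF8 window held a CCAAT box (CCAAT) in reverse and a GC box (GGGCGG), and an AP-1 motif (TGANTCA) began at base 2 of the transcript. The CD38 window held a reverse CCAAT box and an ETS-IRF composite (GGAA and GAAA with 2 bases between them). No motif of the 9 searched was found in the CD52 window or in the 50 bases after its start. Of the 8 antigens with a promoter in the table, 4 held CCAAT and 2 held the ETS-IRF composite from 250 bases before to 50 after the start, where 34.6% and 2.82% of all promoters did. None of the 8 held paired heat shock half-sites (GAANNTTC), found in 6.77% of all promoters, the antioxidant response core (TGACNNNGC), found in 13.3%, or the CRE and UPRE core (TGACGT), found in 7.98%. The AP-1 motif was in 2 of the 8 and in 7.71% of all promoters, and the GC box was in 3 of the 8 and in 45% of all. The E-box (CACGTG) and the TATA box (TATAAA) were in 1 antigen each, beside 7.26% and 11.5% of all promoters. The CCAAT and GC boxes do not overlap other matches in the windows shown, and a match is a description of letters only.

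To compare the antigens with each other, CPM was divided by the length in kilobases of 1 reference transcript per gene. In untreated MM1S, BCMA had the highest level of mRNA per length, 391 ± 27.4 (SD, n = 3), followed by SLAMF7 with 286 ± 14.3, SDC1 with 210 ± 5.64, GPRC5D with 121 ± 40.7 and CD28 with 74.8 ± 4.24. CD38 followed at 16.2 ± 5.80, and CD52, CD30, CD27 and FCRL5 lay at 1.79, 0.29, 0.11 and 0.098 CPM per kilobase. Ranges of neighbours in this order did not overlap, except those of CD27 and FCRL5. In untreated MM1R the order of the 5 highest was the same, but SLAMF7 (295 ± 21.9) and SDC1 (271 ± 26.4) overlapped, and CD52 (21.5 ± 1.32) stood above CD38 (7.91 ± 0.80). With WA, SLAMF7 had the highest level in both lines. Its range was above that of BCMA in MM1S (414 ± 31.1 against 297 ± 55.6) and overlapped it in MM1R (389 ± 31.4 against 379 ± 102).

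**Figure D1:**
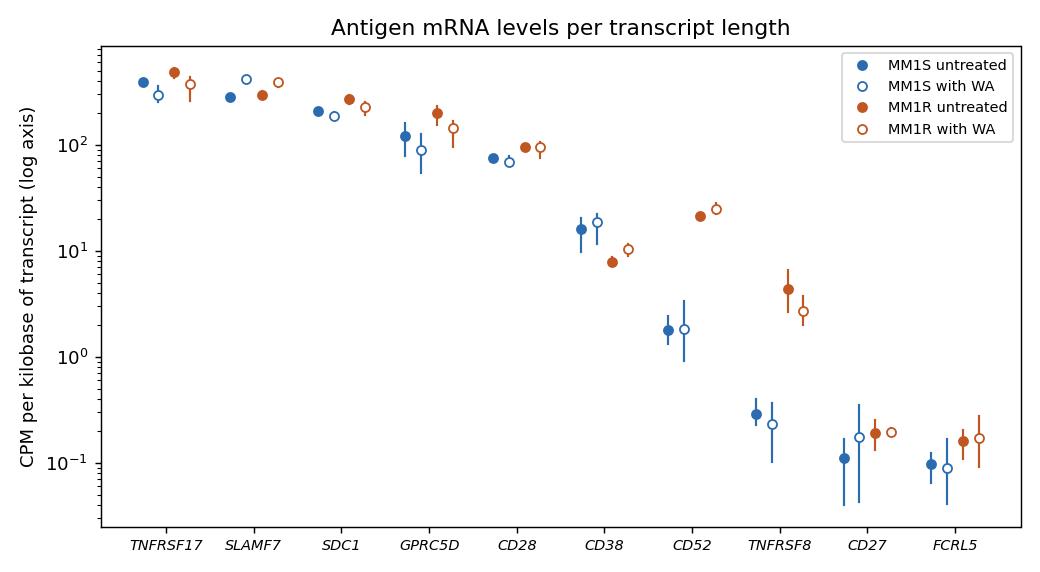
mRNA level of the 10 antigens in CPM per kilobase of transcript on a log axis, as the mean (circle) and range (line) of 3 cultures in each group, MM1S in blue and MM1R in orange, open circles with WA. CD52 and TNFRSF8 lie higher in MM1R than in MM1S with and without WA, and CD27 and FCRL5 lie lowest.

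FCRL5 and CD27 were barely detected. FCRL5 (chr1:157483167-157522305, minus strand) had 4 to 28 reads per culture, and CD27 (chr12:6554121-6560884, plus strand) had 1 to 8. CD27 did not pass the filter and was not tested, and its exons overlap those of CD27-AS1 and TAPBPL. Differences in CD27 were not detectable at this depth. The other 9 antigens were tested.

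**Figure D2:**
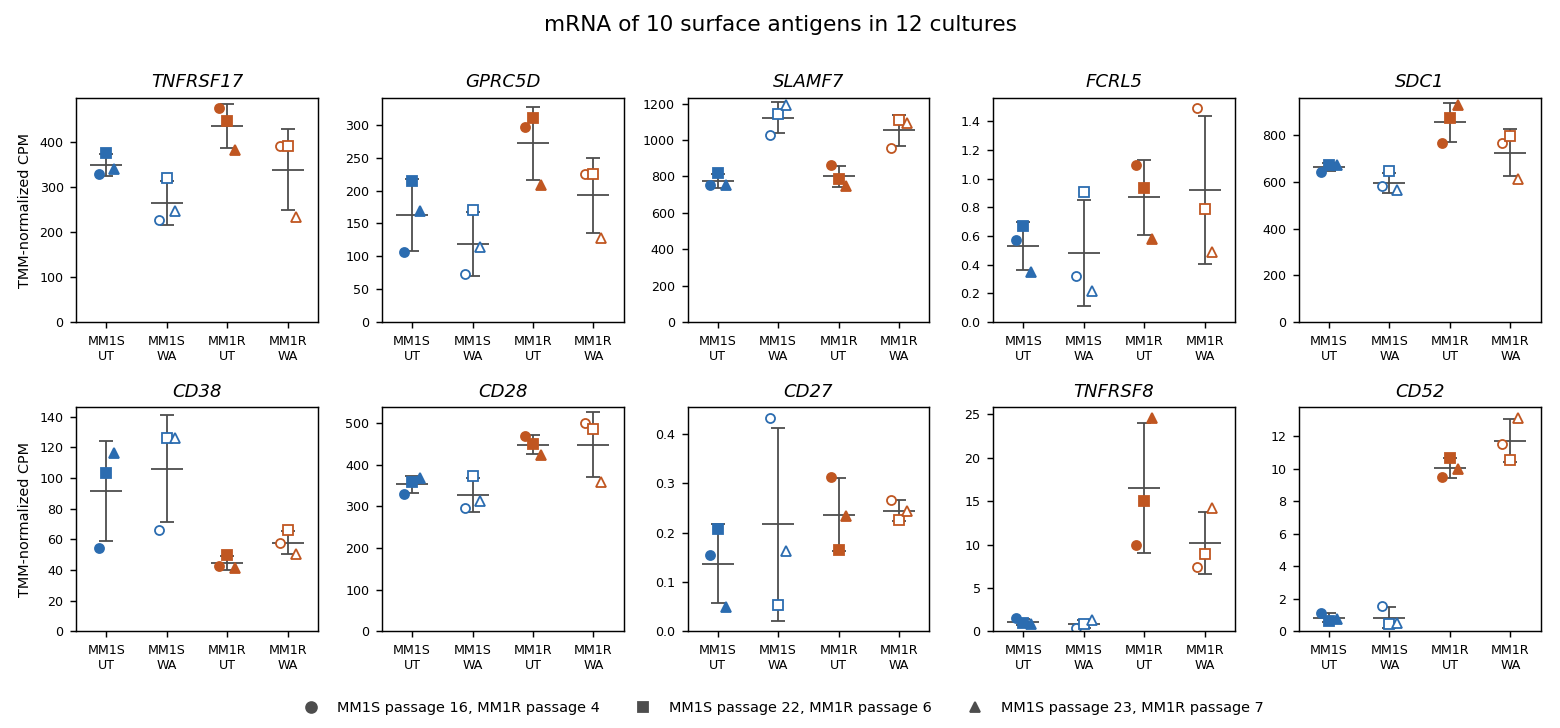
TMM-normalized CPM of each antigen in the 12 cultures, from 0 on each axis, with MM1S in blue, MM1R in orange, open symbols with WA and symbols by passage; bars give the mean ± SD of 3 cultures. CD52 and TNFRSF8 do not overlap between the lines, and the MM1S cultures of passage 16 are the lowest of their groups for CD38 and GPRC5D.

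The comparison of untreated MM1R with untreated MM1S asks which antigens differ with glucocorticoid resistance in this pair of lines. At an adjusted p under 0.01 and a log2 fold change of at least 1 in size, 2 of the 9 antigens tested were higher in MM1R and 0 were lower, where 2.97% of all genes passed, 1.48% higher and 1.49% lower. The median log2 fold change of the 9 was 0.37, beside 0.01 over all genes tested. The same 2 antigens passed under WA, where 3.04% of all genes did, 1.63% higher and 1.41% lower, and the medians were 0.45 and -0.01. Both, CD52 and CD30, were already listed by the study among its most significant genes between the untreated lines, from these same data. The antigens were chosen with earlier results known, so their share and median are descriptions and not a test.

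CD52 (chr1:26644449-26647014, plus strand, 2 exons) had 22, 12 and 15 reads in untreated MM1S of passages 16, 22 and 23, and 29, 8 and 10 with WA. In MM1R of passages 4, 6 and 7 it had 182, 195 and 171 reads untreated and 216, 187 and 216 with WA. All 6 MM1R cultures were above all 6 MM1S cultures. On the CPM scale, CD52 was at 0.83 ± 0.27 in untreated MM1S and 10.0 ± 0.62 in untreated MM1R, and its log2 fold change of 3.58 (SE 0.35) had an adjusted p of 2.32e-05 by the quasi-likelihood test of edgeR, adjusted after Benjamini and Hochberg over all genes. Under WA the log2 fold change was 3.78 (SE 0.35, edgeR adjusted p = 1.58e-05). A CD52 exon is overlapped by UBXN11 on the opposite strand, and the sources do not state whether reads were counted by strand. UBXN11 itself did not pass between the untreated lines (log2 fold change 0.43, edgeR adjusted p = 0.248).

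CD30 (TNFRSF8, chr1:12123360-12204264, plus strand, 15 exons) had 29, 18 and 17 reads in untreated MM1S and 7, 16 and 25 with WA. In MM1R it had 191, 274 and 422 reads untreated and 140, 158 and 233 with WA. The lines did not overlap, and within MM1R the culture of passage 7 was the highest in both conditions. The level was 1.09 ± 0.36 CPM in untreated MM1S and 16.5 ± 7.44 CPM in untreated MM1R, a log2 fold change of 3.91 (SE 0.43, edgeR adjusted p = 5.92e-05). Under WA it was 3.54 (SE 0.44, edgeR adjusted p = 0.000174). With each library left out in turn, CD52 and CD30 stayed past both limits in all 12 fits of either comparison. Each untreated MM1S culture also had the 10 reads that the filter asks for.

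CD38 (chr4:15779898-15854855, plus strand, 8 exons) went the other way. It was at 54.3, 103 and 116 CPM in untreated MM1S of passages 16, 22 and 23 and at 42.5, 49.6 and 41.3 CPM in untreated MM1R. The MM1S values were all above the MM1R values, with passage 16 close to them. The log2 fold change was -1.04 (SE 0.27) and its adjusted p of 0.0231 missed the limit (edgeR's quasi-likelihood test). Without both MM1S cultures of passage 16, a choice made after seeing the data, CD38 was lower in MM1R by both limits, with a log2 fold change of -1.30 (edgeR adjusted p = 1.57e-05). It also passed without the untreated culture of passage 16 alone (edgeR adjusted p = 0.00184), without the WA culture of that passage (edgeR adjusted p = 0.00535), with no filter on low counts and with DESeq2 (adjusted p = 0.00193). Under WA the log2 fold change was -0.87 (edgeR adjusted p = 0.0469), and -1.13 without passage 16 (edgeR adjusted p = 5.77e-05).

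The other 6 antigens tested did not pass between the lines. GPRC5D (chr12:13093509-13105104, minus strand) was at 106, 215 and 169 CPM in untreated MM1S and 297, 310 and 208 CPM in untreated MM1R, which overlapped. Its log2 fold change was 0.74, with a 95% interval of 0.07 to 1.40 (edgeR adjusted p = 0.148). BCMA (chr16:12059067-12061925, plus strand) was at 330, 376 and 341 CPM against 476, 447 and 381 CPM, with no overlap, and a log2 fold change of 0.32 with an interval of -0.08 to 0.71 (edgeR adjusted p = 0.299). SDC1 (chr2:20400558-20425194, minus strand) was at 643 to 675 CPM against 766 to 930 CPM, a log2 fold change of 0.37 with an interval of 0.11 to 0.63 (edgeR adjusted p = 0.0647). CD28 (chr2:204571198-204603635, plus strand) was at 331 to 369 CPM against 424 to 469 CPM, a log2 fold change of 0.34 with an interval of 0.06 to 0.63 (edgeR adjusted p = 0.117). SLAMF7 (chr1:160708847-160724611, plus strand) was at 752 to 819 CPM against 748 to 865 CPM, and the interval of its log2 fold change reached from -0.19 to 0.28. The intervals of BCMA, SDC1, CD28 and SLAMF7 did not reach a log2 fold change of 1, whereas that of FCRL5, from -0.43 to 1.87, did.

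**Figure D3:**
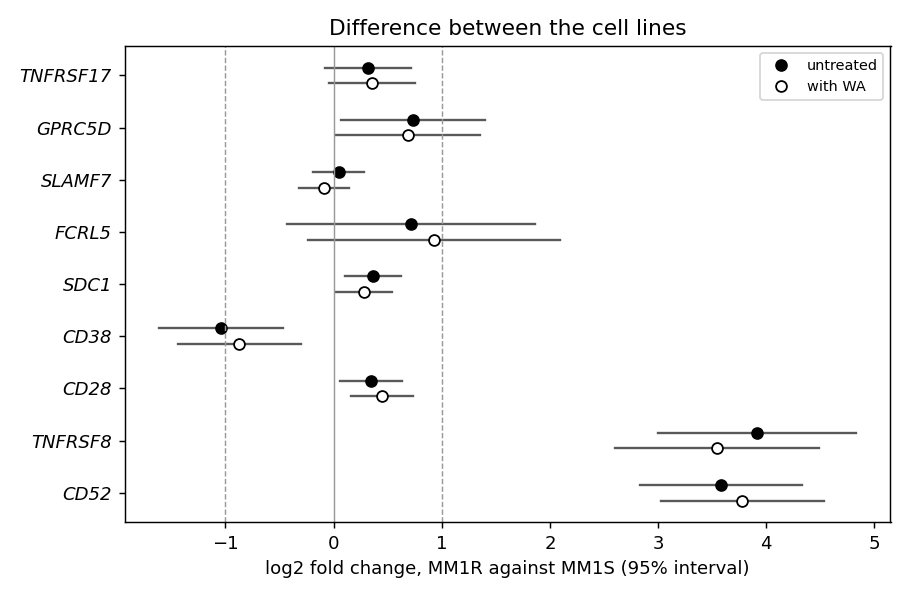
log2 fold change of MM1R against MM1S for the 9 antigens tested, untreated (filled) and with WA (open), with 95% intervals from the edgeR fit and dashed lines at the limits of 1. TNFRSF8 and CD52 lie between 3.54 and 3.91, CD38 lies on the negative side, and the other 6 lie between -0.09 and 0.93.

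The genes whose pattern over the 12 libraries was nearest to these 2 antigens were found from log2 CPM centred on untreated MM1S. For CD52 they were TUBB4A, ICAM1 and NAALADL1, with root mean square differences of 0.51, 0.52 and 0.55. For CD30 they were BCL2L2, LOC105370637 and LOC101928775, at 0.68, 0.73 and 0.75. Their log2 fold changes between the untreated lines, whose direction the choice fixes, were 2.69 to 4.04, and ICAM1 missed the limit (edgeR adjusted p = 0.0108).

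The comparison with WA asks how 3 h of exposure moves the antigens in each line. Of the 9 tested, 1 rose and 0 fell in MM1R at an adjusted p under 0.05, where 14.0% of all genes passed (7.55% higher, 6.46% lower), and 1 rose and 0 fell in MM1S, where 10.5% did (6.25% higher, 4.23% lower). In both lines the antigen was SLAMF7. The same-passage cultures deviated together, though passages 22 and 23 of MM1S did so across passages as well. With passage as a replicate block 2 rose and 3 fell in MM1R, where 29.1% of all genes passed (14.7% higher, 14.4% lower). In MM1S 1 rose and 2 fell, where 24.1% did (12.5% higher, 11.7% lower). The median log2 fold change of the 9 antigens was 0.00 in MM1R and -0.12 in MM1S, beside 0.01 over all genes in each.

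SLAMF7 was at 752, 819 and 752 CPM in untreated MM1S and 1029, 1143 and 1194 CPM with WA. In MM1R it was at 865, 786 and 748 CPM untreated and 955, 1111 and 1091 CPM with WA. All treated cultures were above all untreated cultures of their line. SLAMF7 rose by 0.53 on the log2 scale in MM1S (SE 0.11, edgeR adjusted p = 0.00687) and by 0.40 in MM1R (SE 0.11, edgeR adjusted p = 0.026). With each library left out in turn, the call stayed in all 12 fits of MM1S. In MM1R it was lost without untreated passage 6 (adjusted p = 0.11), untreated passage 7 (0.0961), WA passage 6 (0.0693) or WA passage 7 (0.0646), without both cultures of passage 7 (0.166), and when only the 6 MM1R libraries were fitted (0.0644, all with edgeR). The MM1R call was also lost with no filter on low counts (edgeR adjusted p = 0.101). Within pairs, passage 4 of MM1R had the smallest change, 0.14, and the other 5 pairs changed by 0.45 to 0.67 on the log2 scale. With the replicate block the adjusted p was 0.00109 in MM1S and 0.00528 in MM1R (edgeR), where it rose to 0.055 without untreated passage 6.

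GPRC5D was lower with WA in 6 of 6 pairs. In MM1S it went from 106 to 73.7 CPM at passage 16, from 215 to 171 at passage 22 and from 169 to 114 at passage 23. In MM1R it went from 297 to 225 CPM at passage 4, from 310 to 225 at passage 6 and from 208 to 127 at passage 7. The groups of cultures overlapped in each line, and the spread between passages was larger than the change within them. Without the block, the log2 fold changes were -0.45 in MM1S (edgeR adjusted p = 0.408) and -0.50 in MM1R (edgeR adjusted p = 0.324). With the block GPRC5D fell by 0.48 on the log2 scale in MM1S (edgeR adjusted p = 0.00209) and by 0.52 in MM1R (edgeR adjusted p = 0.000878). These blocked calls stayed in all 12 fits with a library left out, in both lines.

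BCMA was also lower in 6 of 6 pairs. It was at 330, 376 and 341 CPM in untreated MM1S against 227, 321 and 246 CPM with WA, and at 476, 447 and 381 CPM in untreated MM1R against 390, 390 and 234 CPM with WA. The 3 MM1S cultures with WA were below the 3 untreated ones, and the MM1R groups overlapped. Without the block, the log2 fold changes were -0.40 in MM1S (edgeR adjusted p = 0.196) and -0.36 in MM1R (edgeR adjusted p = 0.217). With the block BCMA fell by 0.41 on the log2 scale in MM1S (edgeR adjusted p = 0.0111) and by 0.39 in MM1R (edgeR adjusted p = 0.0116). With a library left out, the blocked call stayed in 8 of 12 fits in MM1S and in 10 of 12 in MM1R. It was lost without either culture of passage 16 or 23 of MM1S (edgeR adjusted p of 0.0848 to 0.112) and without either culture of passage 7 of MM1R (0.0908 and 0.113).

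CD38 was higher with WA in 6 of 6 pairs, by 0.28, 0.28 and 0.12 on the log2 scale in MM1S of passages 16, 22 and 23 and by 0.44, 0.41 and 0.28 in MM1R of passages 4, 6 and 7. Without the block its log2 fold change was 0.38 in MM1R (edgeR adjusted p = 0.389) and 0.22 in MM1S (edgeR adjusted p = 0.679). With the block CD38 rose in MM1R (log2 fold change 0.38, edgeR adjusted p = 0.00562), a call kept in 11 of 12 fits with a library left out and lost without untreated passage 6 (0.0656). In MM1S the blocked adjusted p was 0.0619 (log2 fold change 0.23, edgeR), and it passed without untreated or WA passage 7 of MM1R (0.0469 and 0.0481). CD30 was lower in 3 of 3 pairs of MM1R, by 0.41, 0.76 and 0.79 on the log2 scale, and it fell in MM1R with the block (log2 fold change -0.66, edgeR adjusted p = 0.0286) but not without it (edgeR adjusted p = 0.215). That blocked call stayed in 8 of 12 fits and was lost without any 1 culture of passage 6 or 7 of MM1R (edgeR adjusted p of 0.0984 to 0.15). Without the block CD30 passed in MM1R when no filter on low counts was used (edgeR adjusted p = 0.0146). In MM1S, where CD30 had at most 29 reads, the pairs went both ways.

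SDC1 was lower with WA in 3 of 3 pairs of MM1S and 2 of 3 pairs of MM1R, with log2 fold changes of -0.15 and -0.24 that did not pass with or without the block. With the block SDC1 passed in MM1R only when either culture of passage 4 was left out (log2 fold change -0.37, edgeR adjusted p = 0.035 and 0.0356). CD28, CD52 and FCRL5 did not pass either. The 95% interval of CD28 was -0.39 to 0.18 in MM1S and -0.29 to 0.29 in MM1R, that of CD52 -0.85 to 0.90 and -0.39 to 0.83, and that of FCRL5 -1.35 to 1.10 and -1.0 to 1.18. In the edgeR test of whether WA acted differently in MM1R and MM1S, 0 genes passed, 97 had an unadjusted p under 0.05, and DESeq2 called 1. For SLAMF7 the difference in log2 fold change, MM1R minus MM1S, was -0.14 (95% interval -0.47 to 0.19), for GPRC5D -0.04 (-0.98 to 0.89) and for BCMA 0.04 (-0.52 to 0.59). An effect that passed in 1 line was thus not shown to differ from that in the other.

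**Figure D4:**
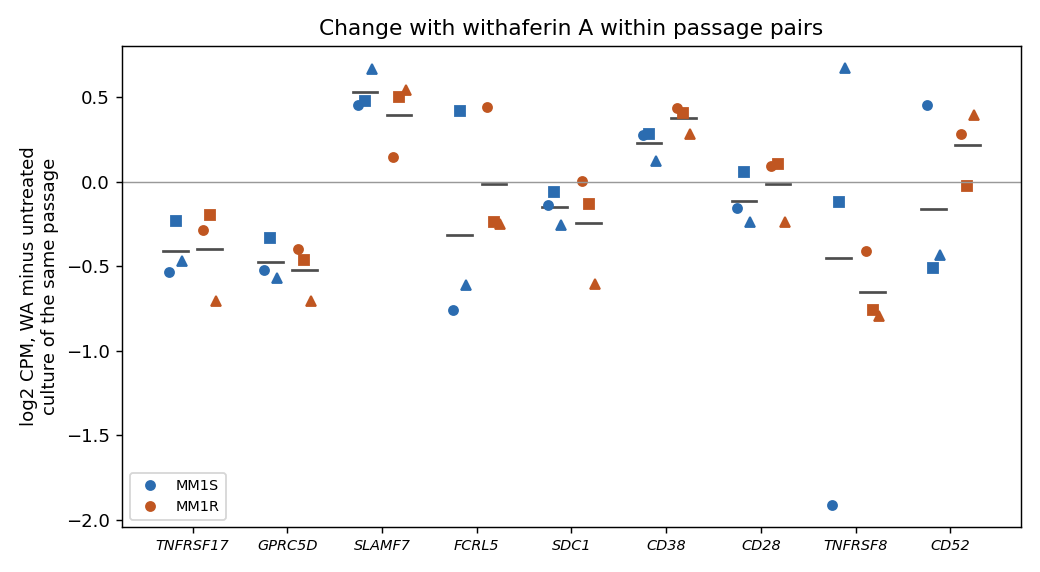
Difference in log2 CPM between the WA culture and the untreated culture of the same passage for the 9 antigens tested, MM1S in blue and MM1R in orange, symbols by passage and a bar at the mean of 3 pairs. SLAMF7 and CD38 lie above 0 in all 6 pairs, and TNFRSF17 and GPRC5D lie below 0 in all 6.

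Ligands, sister receptors and adaptors of the antigens made a list of 17 genes, of which 11 were tested. Between the untreated lines 1 was higher in MM1R and 0 were lower, where 1.48% and 1.49% of all genes were. It was CD30 ligand (TNFSF8), with 0, 3 and 9 reads in untreated MM1S and 71, 60 and 83 in untreated MM1R, a ratio of 19.2 with a counting interval of 10.8 to 37.7 (edgeR adjusted p = 0.000272). With WA it had 2, 2 and 1 reads in MM1S and 37, 46 and 62 in MM1R, a ratio of 30.4 with an interval of 12.7 to 95 (edgeR adjusted p = 0.000294). No MM1S culture reached 10 reads, so TNFSF8 passed the filter on low counts only through the MM1R cultures and had to differ to be tested. CD70, the ligand of CD27, was at 38.6 ± 3.05 CPM in untreated MM1S and 75.9 ± 14.4 CPM in untreated MM1R, and its log2 fold change of 0.97 fell short of the limit on size (edgeR adjusted p = 0.000952). The BCMA sister receptor TNFRSF13B (TACI) was at 128 ± 14.1 and 152 ± 19.1 CPM, the BCMA ligand TNFSF13 (APRIL) at 7.38 ± 0.64 and 6.64 ± 0.66 CPM, and CD86 at 30.7 ± 6.16 and 34.5 ± 7.80 CPM, with none past the limits. CD80 had at most 4 reads. With WA the adaptor TRAF5 rose in both lines, by log2 fold changes of 0.46 in MM1S (edgeR adjusted p = 0.0323) and 0.45 in MM1R (edgeR adjusted p = 0.0288), and was the only gene of the list called in either line without the block. With a library left out its call stayed in 6 of 12 fits in MM1S and 8 of 12 in MM1R. It was lost in MM1S without any untreated culture, WA passage 16 or 23, or untreated passage 6 of MM1R, and in MM1R without untreated passage 6 or 7 or WA passage 4 or 7, with adjusted p of up to 0.145 and 0.126 (edgeR). Without both cultures of passage 16 TRAF5 did not pass in MM1S (edgeR adjusted p = 0.144, and 0.0642 with the block). Without passage 7 it did not pass in MM1R (edgeR adjusted p = 0.155), but did with the block (0.0257). With the block, 3 genes of the list rose and 2 fell in MM1R, and 2 rose and 1 fell in MM1S. Of all genes, 29.1% passed with the block in MM1R and 24.1% in MM1S. TRAF2 rose and PECAM1, a ligand of CD38, fell in both lines, TRAF1 rose in MM1R (edgeR adjusted p = 0.0365), and CD70 fell in MM1R by 0.36 on the log2 scale (edgeR adjusted p = 0.00824). None of these calls made only with the block passed in the blocked fit without passage 7 of MM1R or passage 16 of MM1S (edgeR adjusted p of 0.0541 to 0.179).

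Of 13 genes for gamma-secretase, sheddases and heparan sulfate, all tested, 1 was lower in untreated MM1R and 0 were higher. Of all genes, 1.49% were lower and 1.48% higher. HPSE, the heparanase that trims the chains of syndecans, was at 27.4 ± 5.65 CPM in untreated MM1S and 12.2 ± 0.66 CPM in untreated MM1R (log2 fold change -1.16, edgeR adjusted p = 0.00146). With WA, 2 genes rose and 0 fell in MM1S, where 10.5% of all genes passed. In MM1R 1 rose and 1 fell, where 14.0% passed. EXT1, a polymerase of heparan sulfate, was at 10.2, 11.4 and 8.74 CPM in untreated MM1S of passages 16, 22 and 23 and 28.9, 15.9 and 12.4 CPM with WA. In MM1R of passages 4, 6 and 7 it was at 16.9, 15.2 and 13.7 CPM untreated and 34.3, 27.1 and 20.5 CPM with WA. The groups did not overlap, and passage 16 was far above the other MM1S cultures with WA. EXT1 rose by 0.92 in MM1S and 0.84 in MM1R on the log2 scale (edgeR adjusted p = 0.0424 and 0.047). Without both cultures of passage 16 the MM1S value was 0.50 and did not pass (edgeR adjusted p = 0.253, and 0.0658 with the block). With 1 library left out the call stayed in 6 of 12 fits in MM1S, lost without any untreated MM1S culture, WA passage 16 or either passage 6 culture of MM1R. In MM1R it stayed in 5 of 12 and was lost without untreated passage 22 or 23 of MM1S or any MM1R culture but WA passage 7, with adjusted p of up to 0.177 and 0.187 (edgeR). With the block EXT1 passed in MM1R with and without passage 7 (edgeR adjusted p = 0.0039 and 0.00415).

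The gamma-secretase subunit NCSTN rose in MM1S by 0.41 (edgeR adjusted p = 0.0279) and had 0.34 in MM1R (edgeR adjusted p = 0.0523), where it rose with the block (edgeR adjusted p = 0.0118). The MM1S call was lost without passage 16 (edgeR adjusted p = 0.164, and 0.0696 with the block) and stayed in 6 of 12 fits with a library left out, the losses being the same libraries as for TRAF5 in MM1S. HS6ST1, a sulfotransferase of these chains, fell in MM1R by 0.66 (edgeR adjusted p = 0.0341). Without passage 7 its value was -0.38 (edgeR adjusted p = 0.295, and 0.0341 with the block), and the call was lost without untreated passage 6 or 7 or WA passage 4 or 7. With the block HPSE fell in MM1S by 0.35 (edgeR adjusted p = 0.0359), but not without passage 16 (edgeR adjusted p = 0.22).

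Among 5 regulators of complement and phagocytosis, 4 were tested. With WA 1 of them rose in each line, where 6.25% of all genes did in MM1S and 7.55% in MM1R. In both lines the gene was CD55, which speeds the decay of the C3 convertase. It was at 29.5 ± 4.24 CPM in untreated MM1S and 56.9 ± 3.19 CPM with WA, and at 17.5 ± 1.01 and 46.2 ± 5.22 CPM in MM1R. The groups did not overlap, and the calls stayed in all 12 fits with a library left out. CD55 rose by 0.95 on the log2 scale in MM1S (SE 0.13, edgeR adjusted p = 0.000376) and by 1.40 in MM1R (SE 0.13, edgeR adjusted p = 2.29e-05). CD46, CD59 and CD47 had log2 fold changes of -0.03 to 0.10 with WA and did not pass.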

How the data were processed

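RNA-seq libraries of 12 cultures (n = 3 biologically independent samples per line and treatment, per the study's methods) were used. The authors sequenced paired ends, checked reads with FastQC 0.11.5, mapped them with STAR 2.7.3a to hg19 and deposited raw read counts per gene, which are the values used here. The annotation and strand setting of the counting are not given in the sources used here. A table normalized by the authors was not used. Of the per-sample columns of the raw table, 0 were left out.

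Counts were tested with edgeR 4.0.16 (R 4.3.3; TMM, filterByExpr with a minimum count of 10, quasi-likelihood test, 1 mean for each of 4 groups over all 12 libraries, Benjamini-Hochberg adjustment over 14085 genes). Limits were an adjusted p of 0.01 with a log2 fold change of 1 between lines, as stated in the study's results, and an adjusted p of 0.05 for WA. log2 CPM used a prior count of 0.5. P-values measure the spread between these cultures. Replicates of a group differed by more than sampling noise (chi-square over its degrees of freedom 8.16 or more). The counting interval of the ratio of reads is an exact binomial one of 95%, with reads as the only error.

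Passage numbers in the labels pair untreated and WA cultures of a line. Deviations from the group means correlated by 0.69, 0.24 and 0.41 for passages 16, 22 and 23 of MM1S and by 0.36, 0.16 and 0.19 for passages 4, 6 and 7 of MM1R. Unlike passages gave -0.31 to 0.10 in MM1R and -0.55 to -0.39 for passage 16 against the others of MM1S. Between passages 22 and 23 of MM1S they gave 0.28 and 0.33, above the passage 22 pair, so pairing was not clear there. Calls changed by the block are given with values for the antigens, and by name or as counts for list genes. The lines share no passage, and no fixed block was possible between them.

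The antigens and lists were chosen with earlier results of these data known. Named genes were the 10 antigens, up to 6 genes per list called between untreated lines and up to 6 called with WA, and the 3 genes nearest to each antigen called between untreated lines. CD70, TNFRSF13B, TNFSF13, CD80, CD86, CD46, CD59, CD47, TRAF1, TRAF2, PECAM1, IL6R, ITGB7, LY9, CD79B, UBXN11 and the cell type markers (CD3D, CD3E, CD3G, JCHAIN, DERL3, IRF4, PRDM1, BCL6, BACH2, CIITA, COL1A1) were named outside this rule after their values were seen. ICAM1 fell under the rule as a gene near CD52, but its change with WA was named outside it. Positions and transcript lengths came from GENCODE v44lift37 on GRCh37, promoters from RefSeq, with 8 of 10 antigens matched. SLAMF7 and TNFRSF17 had no entry. Alternatives used DESeq2 1.42.0 and limma 3.58.1, and scripts were tested on simulated data.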

Additional observations from a re-analysis of the deposited data

How the results depend on the processing

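The calls of CD52 and CD30 between the lines kept their direction and their side of both limits under every alternative that tested them. With at least 10 reads required in every library neither was tested, and 0 antigens were called in either comparison. The genes called between the lines, 419 untreated and 428 under WA, were 811 and 819 with no filter on low counts, 234 and 222 with at least 10 reads, 1681 and 1690 at an adjusted p of 0.05 with no limit on the fold change (4 antigens under WA), and 755 and 817 without both MM1S cultures of passage 16. Leaving out 1 library gave 268 to 537 and 264 to 649 genes, and a log2 fold change of SLAMF7 between the untreated lines of -0.014 to 0.091. In limma with passage as a random replicate block, the counts stayed within 1.5 times and CD52 and CD30 were called in both. The cause was not tested for any of these changes.

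With WA, the counts of 1973 genes in MM1R and 1476 in MM1S became 4094 and 3399 with the replicate block, 812 and 556 at an adjusted p of 0.01, and 639 and 690 without passage 7 of MM1R or passage 16 of MM1S, which were left out after seeing the data. Antigens called in MM1R were 5 with the block, 2 with no filter, and 0 with the 6 libraries alone, at 0.01 and without passage 7. The 2 with no filter were GPRC5D (edgeR adjusted p = 0.00578) and CD30 (0.0146), both lower, while SLAMF7 did not pass (0.101). In MM1S 3 antigens were called with the block and 3 with no filter. With no filter, GPRC5D (edgeR adjusted p = 0.0178) and BCMA (0.0498) joined SLAMF7 there. Leaving out 1 library gave 950 to 2396 genes and 0 to 1 antigens in MM1R and 726 to 1621 genes in MM1S. With the block this was 2496 to 4281 genes and 2 to 6 antigens in MM1R, and 1283 to 4133 genes in MM1S. The block changed no antigen call other than those given with the results. The test of a difference in WA effect between the lines called 11 genes with no filter and 1 by DESeq2.

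Changes of sign occurred only for values that were not called. The log2 fold change of CD28 in MM1R, at 0.00048, was -0.0087 with DESeq2's size factors, -0.021 with no filter, -0.018 by DESeq2, -0.017 with the 6 libraries alone and -0.014 with the block. That of CD52 in MM1S was -0.0056 with no filter, -0.0020 by DESeq2, -0.022 with the block and -0.49 without passage 16, where FCRL5 and CD30 were at 0.15 and 0.32. With 1 library left out, CD28 in MM1R ranged from -0.085 to 0.16 (with the block -0.081 to 0.12) and FCRL5 from -0.44 to 0.41 (-0.25 to 0.22). In MM1S, CD38 ranged from -0.050 to 0.47, CD52 from -0.77 to 0.34 (-0.49 to 0.14), FCRL5 from -0.94 to 0.22 (-0.74 to 0.086) and CD30 from -0.81 to 0.024 (-0.97 to 0.31). The difference in WA effect ranged from -0.089 to 0.43 for CD38, -0.12 to 0.99 for CD52, -0.32 to 1.03 for FCRL5, -0.30 to 0.30 for GPRC5D, -0.16 to 0.051 for SDC1, -0.079 to 0.27 for BCMA and -0.73 to 0.11 for CD30. Depth limits CD27, FCRL5 and, in MM1S, CD52 and CD30, all at 29 reads or fewer per culture.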

Other observations

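A list of 40 other surface antigens of B cells, plasma cells and myeloma, written with earlier results known, had 28 genes tested. Between the untreated lines 3 were higher and 1 was lower in MM1R, where 1.48% and 1.49% of all genes were. CD79A, a signaling chain of the B cell receptor, had 5, 2 and 3 reads in untreated MM1S and 70, 62 and 38 in untreated MM1R (a ratio of 18.3 with a counting interval of 9.71 to 38.9, edgeR adjusted p = 1.95e-05). It passed the filter on low counts only through the MM1R cultures and had to differ to be tested. TNFRSF10B, the TRAIL receptor DR5, was at 38.9 ± 2.31 and 79.2 ± 8.36 CPM (log2 fold change 1.03, edgeR adjusted p = 0.000498), and the chemokine receptor CCR10 was at 3.56 ± 0.91 and 7.49 ± 0.69 CPM (log2 fold change 1.07, edgeR adjusted p = 0.00652). The integrin chain ITGA4 was lower in MM1R, at 112 ± 17.5 CPM against 236 ± 16.6 CPM (log2 fold change -1.08, edgeR adjusted p = 0.000675). With a library left out, TNFRSF10B stayed past both limits in 10 of 12 fits (lost without untreated passage 16 of MM1S or passage 4 of MM1R), ITGA4 in 11 (lost without untreated passage 7 of MM1R) and CCR10 in 5 of 12. Without both cultures of passage 16, TNFRSF10B had a log2 fold change of 0.98, under the limit.

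With WA, 2 genes of this list rose and 2 fell in each line, where 14.0% of all genes passed in MM1R and 10.5% in MM1S. The chemokine receptor CXCR4 rose from 41.3 ± 1.18 to 75.1 ± 18 CPM in MM1S and from 26.6 ± 5.58 to 55.9 ± 12.1 CPM in MM1R (edgeR adjusted p = 0.0132 and 0.00325). CCR2 fell from 13.9 ± 7.45 to 2.72 ± 1.08 CPM and from 22.7 ± 2.57 to 4.80 ± 1.66 CPM (edgeR adjusted p = 0.00125 and 0.0012). CD48, a SLAM family relative of SLAMF7, fell by 0.51 on the log2 scale in MM1S and by 0.66 in MM1R (edgeR adjusted p = 0.00668 and 0.00105), while SLAMF7 rose. Without passage 16, CXCR4 and CD48 did not pass in MM1S (edgeR adjusted p = 0.103 and 0.0503) but did with the block (0.00654 and 0.0162). The second rising gene was TNFRSF10B in MM1S (log2 fold change 0.87, edgeR adjusted p = 0.00186) and IL6ST, the signaling chain of the IL-6 receptor, in MM1R (log2 fold change 0.78, edgeR adjusted p = 0.00565). IL6ST had 0.52 in MM1S (edgeR adjusted p = 0.0512), where it rose with the block (edgeR adjusted p = 0.0148), and in MM1R its adjusted p was 0.0534 without passage 7 (0.000978 with the block). TNFRSF10B had a log2 fold change of 0.00 with WA in MM1R, and its difference between the lines did not pass after adjustment (edgeR adjusted p = 1.00). With the block 4 genes of the list rose and 3 fell in MM1R, where 14.7% of all genes rose and 14.4% fell. In MM1S 3 rose and 5 fell with the block, where 12.5% and 11.7% of all genes did. The genes added were IL6R, ICAM1 and ITGB7 in MM1R and IL6ST, LY9, ITGB7 and CD79B in MM1S. None of those added in MM1S passed in the blocked fit without passage 16 (edgeR adjusted p of 0.064 to 0.122). Of those added in MM1R, ICAM1 passed with the block without passage 7 (edgeR adjusted p = 0.0441). IL6R and ITGB7 did not (0.122 and 0.179).

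Among the markers of other cell types, BCL6 rose with WA by log2 fold changes of 2.73 in MM1S and 2.55 in MM1R (edgeR adjusted p = 0.0163 and 0.0182), calls that stayed in 9 of 12 fits with a library left out in each line. They were lost in MM1S without untreated passage 22 or 23 or WA passage 16, and in MM1R without untreated passage 6 or 7 or WA passage 7. COL1A1, a collagen chain and the 1 stromal marker of 5 that could be tested, went from 9 to 21 reads untreated to 43 to 120 with WA in MM1S and from 25 to 45 reads to 93 to 294 in MM1R (log2 fold changes 2.78 and 2.46, edgeR adjusted p = 0.00454 and 0.00386), while 3 stromal markers had 0 reads in all cultures. Its MM1R call was lost without passage 7 (edgeR adjusted p = 0.0709) but not with the block (0.000972). BACH2 rose only with the block (edgeR adjusted p = 0.00376 in MM1S and 0.00177 in MM1R). Its blocked call was lost in MM1S without passage 16 (edgeR adjusted p = 0.0584) and stayed in MM1R without passage 7 (0.00528). BCL6, BACH2 and CIITA were the 3 genes tested of 6 B cell markers. CIITA went the other way and fell in MM1S with the block (log2 fold change -0.40, edgeR adjusted p = 0.0166). That call was lost without passage 16 (edgeR adjusted p = 0.0724), and CIITA was not called in MM1R. The plasma cell gene IRF4 fell by 0.73 in MM1S and 0.96 in MM1R on the log2 scale (edgeR adjusted p = 0.0186 and 0.00323). With a library left out its call stayed in 12 of 12 fits in MM1R and 9 of 12 in MM1S. The MM1S call was lost without untreated passage 22 or 23 or WA passage 16 (edgeR adjusted p of up to 0.0871). With the block 4 of 10 plasma cell markers fell in MM1S and 3 in MM1R, PRDM1 among them (edgeR adjusted p = 0.00556 and 0.00455). Of all genes, 11.7% and 14.4% fell with the block. No gene of the T and NK cell, myeloid or erythroid lists passed in any comparison, where 2, 1 and 1 genes could be tested.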
